A study of Homo sapiens with 6 samples.

Results

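RAC3 lies in a gene-dense stretch near the end of the long arm of human chromosome 17, and the 8 genes described here are its neighbours there: LRRC45, DCXR, RFNG, GPS1, DUS1L, CCDC57, SLC16A3 and CSNK1D. They were chosen for their position, as the rows of the deposited count table with these symbols, out of 20332 genes in the table. The choice was made with earlier results of these data known. Of the 8, LRRC45 alone lies before RAC3. Other genes lie closer to RAC3 than some of the 8 and were not among them, most of them before RAC3. CENPX, ASPSCR1, FASN and the called ones of these are given below. The question was whether the endogenous neighbourhood changed together with the overexpressed gene. RNA was sequenced after poly(A) selection from Huh-7, an established human hepatocellular carcinoma cell line. The RAC3 group (n = 3) came from Huh-7 cells stably overexpressing RAC3 after lentiviral delivery, and the NC group (n = 3) from the matching negative control cells, whose genotype label is wild type. Samples were grouped by their titles, because the genotype labels of RAC3 samples 2 and 3 name other genes. The study calls the RNA samples independent without saying that they came from separate cultures. The p-values therefore measure the spread between these samples, which may be technical.

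RAC3 is a small GTPase that cycles between a GTP-bound active form and a GDP-bound inactive form and acts on the actin cytoskeleton, adhesion and migration. A lentiviral vector adds its cassette to the genome and does not replace the endogenous RAC3 gene. The insertion sites in these cells are not stated. Adjacent genes can share promoters, enhancers and chromatin state, and short distances between genes also allow a transcript of one to run into the next. Most of the neighbours are unrelated in function. LRRC45 is a protein of the fibres that link the centrioles, DCXR reduces dicarbonyl compounds and L-xylulose, and RFNG is a Fringe glycosyltransferase that modifies Notch receptors. GPS1 is a subunit of the COP9 signalosome, DUS1L is a tRNA dihydrouridine synthase, and CCDC57 is a coiled-coil protein of centriolar satellites. SLC16A3 encodes the lactate exporter MCT4, and CSNK1D encodes casein kinase 1 delta, which phosphorylates the PERIOD proteins of the circadian clock.

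Total counts per sample lay between 13855762 and 18199888, at which 3 counts correspond to 0.167 to 0.215 counts per 1000000 (CPM). Levels below are CPM after TMM scaling, and fold changes are on the log2 scale from edgeR's quasi-likelihood test of RAC3 against NC over 12941 genes. A gene was called when its Benjamini-Hochberg adjusted p was below 0.05, and the thresholds of the study, a fold above 1.5 in either direction with an unadjusted p below 0.05, served as a second rule. Of all genes tested, 1717 were called higher and 1974 lower, a share of 46.5% higher. With library size alone as the scaling, 2613 were higher and 1381 lower (65.4% higher). All 9 hepatocyte markers were counted, from 47 counts for FABP1 upward, with a summed level, before TMM scaling, of 4882 to 5031 CPM in NC and 4557 to 5082 CPM in RAC3. The 6 markers of other liver cells summed to 75.7 to 85 CPM in NC and 67.5 to 69.9 CPM in RAC3. Most of this came from CD14, with 463 to 785 counts per sample, and COL1A1, with 461 to 702. PECAM1 had 34 to 55 counts. PTPRC, ACTA2 and LYVE1 reached at most 9, 7 and 1 counts, and none of the 6 was at 0 in every sample.

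RAC3 itself was the check of the labels. It measured 35.6, 31.4 and 32.8 CPM in the 3 NC samples and 233, 240 and 225 CPM in the 3 RAC3 samples. All 3 RAC3 samples, including the pair whose genotype labels name other genes, stood far above all 3 NC samples. The difference was 2.81 ± 0.0575 (log2, SE), a 7-fold change with a 95% interval of 6.44 to 7.61 and an adjusted p of 9.64e-18 by edgeR's quasi-likelihood test. Counts per gene do not separate endogenous RAC3 transcripts from those of the cassette. An implied transcript length was taken as the count divided by the deposited FPKM and the sample's total count. Each sample was then scaled by its median ratio over genes. The lengths behind the FPKM are not stated, so the implied values need not equal them. For RAC3 the implied length was 899, 921 and 904 bp in NC and 967, 967 and 975 bp in RAC3. This was 6.79% longer with no overlap between the groups, and 14.6% of 11218 genes moved at least as far in either direction. The annotation (GENCODE release 29, GRCh38) holds 4 RAC3 transcripts, of 1090, 831, 730 and 798 bp.

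The immediate neighbours on either side did not pass the test. LRRC45 (ENSG00000169683, chr17:82023302-82031151, plus strand, GRCh38) ends 472 bp before RAC3 begins and is transcribed toward it. It measured 23.5, 18.4 and 21.5 CPM in NC and 15.6, 19.1 and 19.7 CPM in RAC3. RAC3 sample 1 was the lowest of the 6, and the groups overlapped. The means were 21.1 ± 2.58 and 18.2 ± 2.2 CPM (SD, n = 3 each), a difference of -0.22 with a 95% interval of -0.45 to 0.01 and an adjusted p of 0.138 by edgeR's quasi-likelihood test. DCXR (ENSG00000169738, chr17:82035136-82037732, minus strand, GRCh38) lies 931 bp beyond RAC3 and runs toward it from the other side, so that the pair of genes ends tail to tail. Its levels were 25.9, 24 and 27.2 CPM in NC and 23.6, 26.5 and 23.5 CPM in RAC3. RAC3 sample 2 lay inside the NC range and the others just under it. The difference was -0.07 (95% interval -0.25 to 0.11, adjusted p = 0.587 by edgeR), from 25.7 ± 1.59 to 24.5 ± 1.69 CPM (SD, n = 3 each). For both genes the interval lay far below the 2.81 of RAC3 and left out any change of 1.5-fold in either direction (0.585 on the log2 scale).

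The DNA just before the starts of these 2 genes is shown because they are the nearest to RAC3. Both stretches come from RefSeq (GRCh38.p14) and were cut to the longest run without annotated exon. Each is written 5′ to 3′ on the gene's strand. Capitals mark CCAAT, the box bound by NF-Y, in LRRC45, and CCAAT and the GC box GGGCGG in DCXR, on either strand. The LRRC45 stretch lies inside the span of CENPX, a gene on the opposite strand.
LRRC45, chr17:82023055-82023301: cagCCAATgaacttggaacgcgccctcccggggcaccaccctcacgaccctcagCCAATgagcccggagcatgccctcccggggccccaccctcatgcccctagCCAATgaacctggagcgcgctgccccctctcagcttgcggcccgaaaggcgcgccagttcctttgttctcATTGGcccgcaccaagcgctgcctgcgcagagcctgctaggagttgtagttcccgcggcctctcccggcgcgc
DCXR, chr17:82037733-82037904: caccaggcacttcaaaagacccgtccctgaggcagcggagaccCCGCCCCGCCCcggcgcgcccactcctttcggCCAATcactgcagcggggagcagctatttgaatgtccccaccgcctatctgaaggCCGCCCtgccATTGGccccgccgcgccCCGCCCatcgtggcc
LRRC45 held 4 CCAAT matches, 3 on its own strand and 1 on the other. CCAAT occurred in 34.6% of 35116 promoter windows in the RefSeq table (250 bp before to 50 bp after each start), and GGGCGG in 45%.

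RFNG, GPS1 and DUS1L form a tight cluster downstream of DCXR, and none of them was called. RFNG (ENSG00000169733, chr17:82047902-82051831, minus strand, GRCh38) lies 13.7 kb from RAC3. Its levels were 17.1, 14.1 and 12.9 CPM in NC and 13.1, 11.8 and 12 CPM in RAC3. NC sample 1 was the highest, and RAC3 sample 1 lay inside the NC range. The mean went from 14.7 ± 2.13 to 12.3 ± 0.663 CPM (SD, n = 3 each), a difference of -0.25 with an interval of -0.50 to 0.00 and an adjusted p of 0.131 by edgeR. GPS1 (ENSG00000169727, chr17:82050691-82057470, plus strand, GRCh38) lies 16.5 kb from RAC3, starts inside RFNG and runs the other way. It measured 116, 109 and 103 CPM in NC and 86.2, 103 and 106 CPM in RAC3. RAC3 sample 1 was low, while the other RAC3 samples lay within the NC range. The difference of -0.15 (95% interval -0.29 to -0.01), from 109 ± 6.66 to 98.6 ± 10.9 CPM (SD, n = 3 each), had an unadjusted p of 0.0415 and an adjusted p of 0.111 by edgeR. Without adjustment, 39.2% of all genes tested lay below 0.05. RFNG and GPS1 share 835 bp of exon on opposite strands, 21.6% of the exonic bases of RFNG and 13.6% of those of GPS1. Whether the counting used strand is not stated, so reads from that stretch cannot be assigned to one gene with certainty.

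DUS1L (ENSG00000169718, chr17:82057506-82065887, minus strand, GRCh38) ends 35 bp after GPS1, tail to tail, and 23.3 kb from RAC3. Its levels were 44.3, 46.6 and 45.4 CPM in NC and 41.2, 45.5 and 44.9 CPM in RAC3. RAC3 sample 1 was again the lowest, and the groups overlapped. The difference was -0.05 (95% interval -0.19 to 0.08, adjusted p = 0.59 by edgeR), from 45.4 ± 1.14 to 43.9 ± 2.33 CPM (SD, n = 3 each). RFNG and GPS1 also face each other at their starts: the RefSeq start of RFNG and the third listed start of GPS1 lie 86 bp apart, head to head. The longest exon-free run between them, of 27 bases, is printed on the plus strand. Capitals mark the GC boxes, here read on the minus strand and overlapping by 1 base.
RFNG and GPS1, chr17:82051838-82051864: aagaacgcagcggccCCGCCCCGCCCc

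SLC16A3 was the neighbour that changed, and it fell. SLC16A3 (ENSG00000141526, chr17:82228397-82261129, plus strand, GRCh38) lies 194 kb from RAC3. Its levels were 138, 109 and 100 CPM in NC and 69.2, 68.6 and 69.7 CPM in RAC3. NC sample 1 was the highest, and every RAC3 sample lay below every NC sample, the RAC3 samples being nearly equal. The mean went from 116 ± 19.8 to 69.1 ± 0.548 CPM (SD, n = 3 each), 0.598 times the NC level. On the log2 scale it fell by 0.74 (95% interval -0.91 to -0.57, adjusted p = 2.93e-06 by edgeR's quasi-likelihood test). Leaving out NC sample 1 made the difference -0.60. The direction was opposite to that of RAC3.

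The second listed RefSeq start of SLC16A3 is shown because this was the called neighbour. The 140 bases printed are an exon-free run before it, inside the annotated span of SLC16A3. Bases between this run and the start were left out. Capitals mark the 2 matches to ACGTG, which like GCGTG is a form of the core of the hypoxia response element. Both matches are on the plus strand.
SLC16A3, chr17:82228892-82229031: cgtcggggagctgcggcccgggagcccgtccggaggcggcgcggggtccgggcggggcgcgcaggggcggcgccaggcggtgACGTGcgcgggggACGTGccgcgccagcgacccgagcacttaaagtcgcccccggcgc
At least 1 ACGTG occurred in 21.4% of all 35116 promoter windows and at least 2 in 8.82%. Among the 5 listed SLC16A3 windows it was in this one alone, and 1 of the 3 GPS1 windows also held 2 matches. E-boxes (CACGTG, which contains ACGTG) and TATAAA were in none of the 13 windows found for 7 of the 9 genes; CSNK1D and RAC3 had no entry. Over the 13 windows the GC content was 63.3 to 82.7%, against a median of 58.7% over all promoters in the table.

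The genes on either side of SLC16A3 were not called. CCDC57 (ENSG00000176155, chr17:82101460-82212830, minus strand, GRCh38) lies 67.3 kb from RAC3 and had the lowest counts of the 8, from 47 to 87 per sample. It measured 3.37, 3.2 and 4.85 CPM in NC and 4.78, 3.89 and 4.61 CPM in RAC3. NC sample 3 was the highest of all, and the groups overlapped. The difference was 0.20 with the widest interval of the 8 (-0.24 to 0.65, adjusted p = 0.509 by edgeR), from 3.8 ± 0.91 to 4.43 ± 0.476 CPM (SD, n = 3 each), so that a change of 1.5-fold upward was not left out at this depth. CSNK1D (ENSG00000141551, chr17:82239023-82273731, minus strand, GRCh38) is the farthest of the 8, at 205 kb. Its levels were 235, 234 and 213 CPM in NC and 228, 224 and 222 CPM in RAC3. The RAC3 samples lay inside the NC range. The difference was -0.02 (95% interval -0.11 to 0.08, adjusted p = 0.821 by edgeR), from 227 ± 12.5 to 224 ± 3.06 CPM (SD, n = 3 each). CSNK1D and SLC16A3 overlap on opposite strands over 22107 bp, of which 482 bp are exonic in both, 5.36% of the exonic bases of SLC16A3 and 4.37% of those of CSNK1D. The one fell while the other stayed within its NC range.

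**Figure D1:**
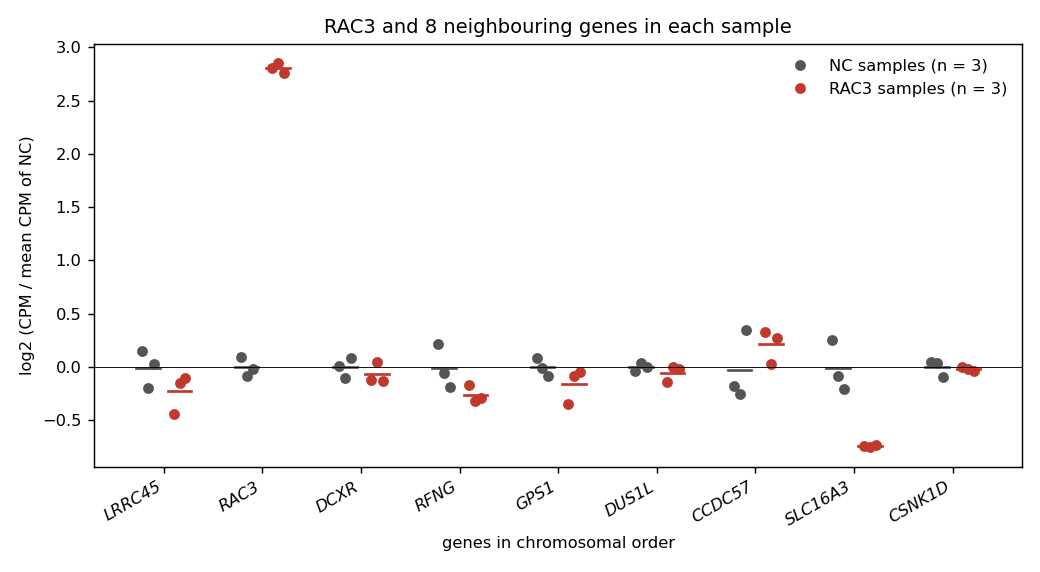
RAC3 and its 8 neighbours in chromosomal order, each point 1 sample, as the log2 ratio of its CPM to the NC mean of the gene; grey points are NC (n = 3), red points RAC3 (n = 3), and short lines are group means of these log2 ratios. RAC3 stood near 2.81 in its 3 overexpressing samples, SLC16A3 lay below 0 in all 3, and the groups of the other 7 neighbours overlapped.

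All 8 neighbours passed the filter on low counts. Of them, 1 was called, or 12.5%, against 28.5% of all 12941 genes tested. None was called higher, against a background of 13.3%, and SLC16A3 was the 1 called lower, against 15.3%. The same gene passed the thresholds of the study (1 of 8, background 4.68%), again with 0 higher (background 1.68%) and 1 lower (background 2.99%). SLC16A3 was also the 1 member whose groups did not overlap, a property that 42.5% of all genes had. The median difference of the 8 was -0.11, with 7 below 0, against a median of 0.00 over all genes.

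The region around RAC3, with the 8 genes counted in, showed a median shift of similar size. Within 250 kb of RAC3, with RAC3 left out, 22 genes were tested with a median of -0.14. Of these, 0 were called higher and 5 lower, 22.7% in all. The 5 include SLC16A3 and FASN. The others, named after their values were seen, lie before RAC3: PYCR1 (-0.28, adjusted p = 0.00179 by edgeR), PCYT2 (-0.26, adjusted p = 0.00143) and MCRIP1 (-0.43, adjusted p = 0.00149). Within 500 kb the median of 40 genes was -0.16, and 32 of the 40 lay below 0. Within 1 Mb, 54 genes had a median of -0.16, with 25.9% called in all, close to the background of 28.5%. By direction the calls were uneven, 1 higher and 13 lower, while 13.3% of all genes were called higher and 15.3% lower. The whole of chromosome 17 had a median of -0.07 over 786 genes, with 58 called higher and 159 lower, 27.6% in all. The median deviation of the 1 Mb genes was 0.07, -0.03 and -0.02 in the NC samples and -0.15, -0.14 and -0.11 in the RAC3 samples. Every RAC3 sample thus lay below every NC sample, and NC sample 1 stood above the other NC samples. The count of 14 called genes dropped to 9 without NC sample 1 and to 9 without RAC3 sample 3, and the 250 kb median was -0.07 without NC sample 1.

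GC content moved with this shift. The median transcript GC was 63.9% in the 8 neighbours, 62.7% within 1 Mb and 55.7% on chromosome 17, against 49.9% over all genes tested. When each library's trend of level with transcript GC was removed, the median became 0.08 for the 8 neighbours, 0.06 within 250 kb and 0.00 within 1 Mb. The direction of the calls turned with it: among the 40 genes within 500 kb, 8 lower and 1 higher became 2 lower and 8 higher. Within 250 kb, 5 lower and 0 higher became 2 lower and 5 higher. Over all 12863 genes in the fit with the GC trend removed, 1459 were called lower and 1171 higher. Whether the region differed from that background was not tested. PYCR1, PCYT2 and MCRIP1 were no longer called. SLC16A3 stayed called at -0.53 (adjusted p = 1.87e-05 by edgeR) but was then under the 1.5-fold threshold, so 0 of the 8 passed the thresholds of the study. The other 7 neighbours remained uncalled, from -0.02 for RFNG to 0.35 for CCDC57.

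Between the outermost members lies 1 further gene that was tested, FASN, which encodes fatty acid synthase, 44.1 kb from RAC3 between DUS1L and CCDC57. It measured 1268, 1203 and 1191 CPM in NC and 772, 824 and 829 CPM in RAC3, with every RAC3 sample below every NC sample. It fell by 0.59 (95% interval -0.68 to -0.51, adjusted p = 6.88e-09 by edgeR), and by 0.38 with the GC trend removed. Within 1 Mb the thresholds of the study were passed by 4 genes, all lower: FASN, SLC16A3, NOTUM, a secreted Wnt inhibitor, at -0.71 (adjusted p = 0.0605 by edgeR), and TEX19, a germ-cell gene, at -1.07 (adjusted p = 0.0344). NOTUM and TEX19 were weakly expressed, at 2.96 ± 0.253 and 1.45 ± 0.0161 CPM in NC (SD, n = 3). With the GC trend removed NOTUM was at -0.48 (adjusted p = 0.224 by edgeR), and TEX19, at -0.99 (adjusted p = 0.0613), was no longer called. The 1 gene called higher within 1 Mb was CCDC137 at 0.20 (adjusted p = 0.0483), or 0.38 with the GC trend removed, named after its value was seen. On the side before LRRC45, the nearest genes are CENPX, a centromere protein gene 7.52 kb from RAC3, and ASPSCR1, 14.2 kb away, at -0.14 (adjusted p = 0.31). CENPX was at 0.23 (adjusted p = 0.113 by edgeR), from 13.6 ± 1.22 CPM in NC to 15.9 ± 0.712 CPM in RAC3 (SD, n = 3 each), with every RAC3 sample above every NC sample. With the GC trend removed it was called higher, at 0.39 (adjusted p = 0.0086).

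**Figure D2:**
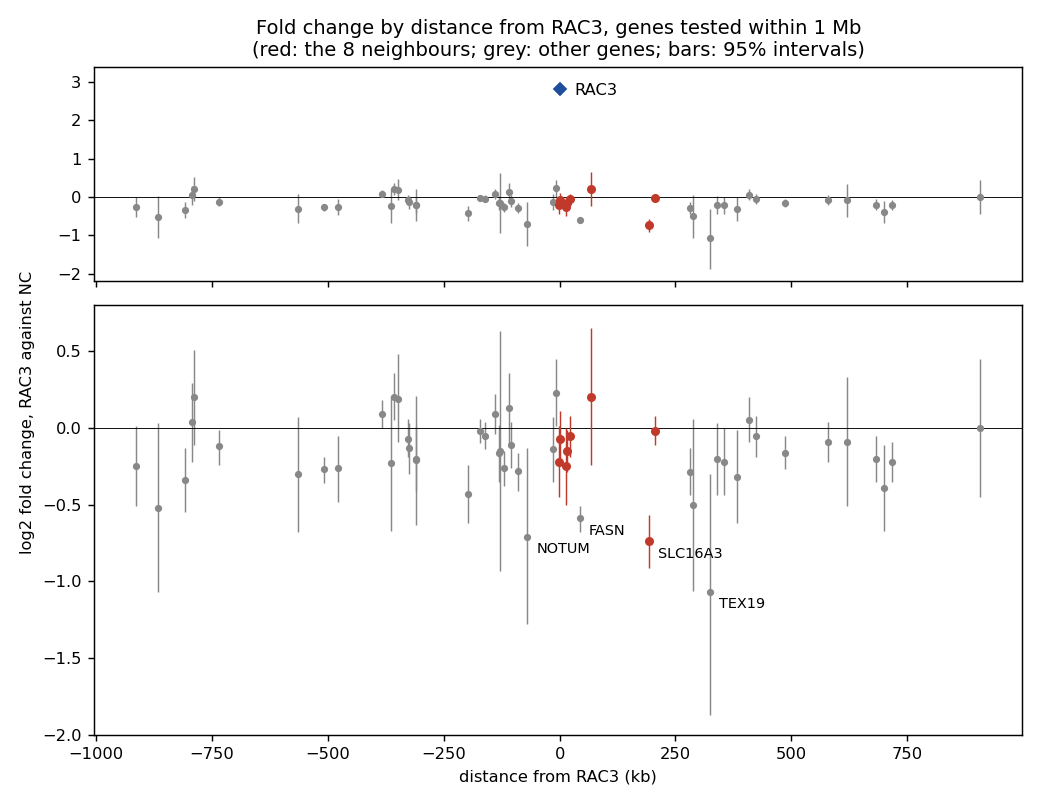
Log2 fold change of RAC3 against NC by distance from RAC3 in kb (negative before it, positive after it) for the 54 genes tested within 1 Mb, with 95% intervals; red points are the 8 neighbours, grey points other genes, and the lower panel repeats the upper one on a finer scale without RAC3. RAC3 stands alone at 2.81, the other genes lie between -1.07 and 0.23, and 44 of the 54 are below 0.

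Across the 20 alternative settings, which change the scaling, the filter, the tool, the GC or length trend or leave out 1 sample, SLC16A3 was called each time, at -0.84 to -0.53. The other 7 members were called in 0 of the 20. RFNG ranged from -0.34 to -0.02 and CCDC57 from 0.09 to 0.47. LRRC45 (-0.31 to 0.00, crossing 0 in 1 setting), DCXR (-0.13 to 0.13), GPS1 (-0.21 to 0.04), DUS1L (-0.08 to 0.14) and CSNK1D (-0.07 to 0.11) changed sign between settings, so no direction can be given for them.

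**Figure D3:**
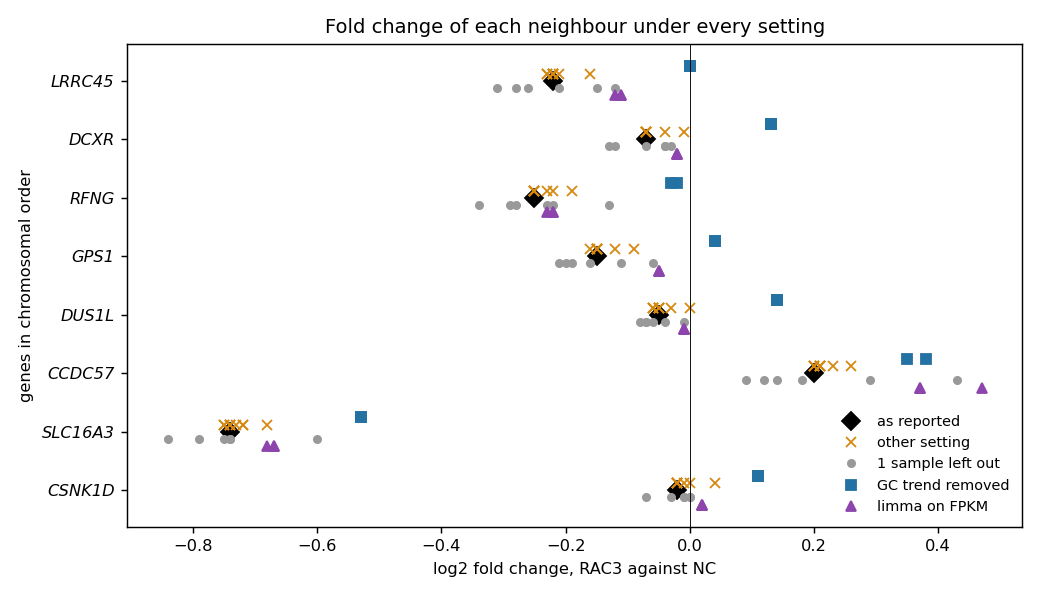
Log2 fold change of each neighbour (x axis) under every setting, with genes in chromosomal order from the top. Black diamonds are the reported values, blue squares the fits with the GC trend removed, purple triangles limma on FPKM, grey points fits without 1 sample and orange crosses all other settings; SLC16A3 stays between -0.84 and -0.53, and the blue squares lie to the right of the diamonds for all 8 genes.

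Levels of different genes can be compared only per length, for which the deposited FPKM values were used. In NC, CSNK1D was the highest at 88.9 ± 5.87 FPKM, followed by GPS1 at 60 ± 4.99, SLC16A3 at 43.5 ± 7.27 and RAC3 at 35.9 ± 2.49 (SD, n = 3). DCXR had 30.4 ± 2.11 FPKM, DUS1L 24.9 ± 0.695, RFNG 8.4 ± 0.724, LRRC45 7.8 ± 0.928 and CCDC57 1.17 ± 0.262. Endogenous RAC3 thus stood in the middle of its neighbourhood in the control cells. The ranges of neighbours in this order overlapped for SLC16A3 with RAC3 and for RFNG with LRRC45 and were separate for the others. In the RAC3 group, RAC3 was first at 244 ± 8.3 FPKM, above CSNK1D at 89.7 ± 2.7 and GPS1 at 58 ± 6.01. SLC16A3, at 26.9 ± 0.326 FPKM, had passed below DCXR at 29.9 ± 1.95 and was followed by DUS1L at 24.8 ± 1.37, all with separate ranges. LRRC45 (7.19 ± 0.956) and RFNG (7.16 ± 0.45) overlapped, and CCDC57 was again the lowest at 1.64 ± 0.132 FPKM.

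**Figure D4:**
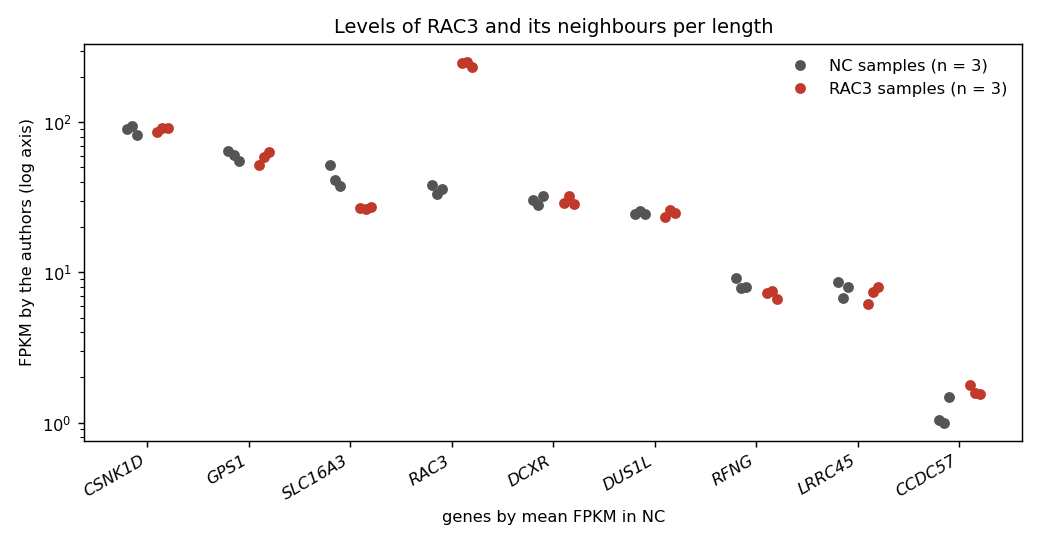
Deposited FPKM of RAC3 and its 8 neighbours (log axis), ordered by the mean in NC; each point is 1 sample, grey for NC (n = 3) and red for RAC3 (n = 3). RAC3 goes from the fourth place in NC to the first in the RAC3 group, SLC16A3 from the third to the fifth, and CCDC57 is last in both.

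For CCDC57 the FPKM values did not overlap (1 to 1.47 in NC, 1.55 to 1.79 in RAC3), whereas its CPM values did. The transcript length implied by its counts and FPKM was 3151, 3140 and 3247 bp in NC and 2734, 2489 and 3025 bp in RAC3. It was 13.5% shorter, so part of the FPKM difference was not in the counts. The implied length also differed without overlap for LRRC45 (2.79% shorter), DCXR (0.901% longer) and SLC16A3 (0.526% longer), while RFNG, GPS1, DUS1L and CSNK1D overlapped. That is 4 of 8 members, where 11% of 11218 genes had groups that did not overlap. The median movement over these genes, in either direction, was 1.3%, more than that of DCXR or SLC16A3. Log2(FPKM + 0.5) tested with limma still left CCDC57 uncalled.

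The functional partners of each neighbour were followed in lists written from general knowledge. Their counts are to be read against the 28.5% of all genes tested that were called, 13.3% higher and 15.3% lower, and no list was tested against the others. Of 6 tested genes of monocarboxylate and lactate handling, 3 were higher and 2 lower (83.3% called): SLC16A3 and LDHA, the lactate dehydrogenase subunit that forms lactate (-0.35, adjusted p = 1.20e-06 by edgeR), fell, and the transporter chaperone EMB (0.32, adjusted p = 0.00307) and the transporter SLC16A1 (0.20, adjusted p = 0.0111) rose. The fifth, the transporter SLC16A7 (0.19), was named after its value was seen. With the GC trend removed SLC16A3 and LDHA (-0.44) stayed lower, EMB, SLC16A1 and SLC16A7 were no longer called, and BSG, the chaperone of MCT4, went from -0.06 to 0.10 and was called. LDHA measured 2049 ± 69.7 CPM in NC and 1611 ± 22.4 CPM in RAC3 (SD, n = 3 each).

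Of the Notch pathway, which RFNG serves, 15 of 17 listed genes were tested, with 1 called higher and 5 lower (40% called, against 28.5% of all genes). The median was -0.25, and -0.10 with the GC trend removed. The target and feedback inhibitor NRARP (-0.72, adjusted p = 0.00142 by edgeR), the receptor NOTCH3 (-0.52, adjusted p = 0.00162), the target HES1 (-0.42, adjusted p = 0.00225) and the ligand JAG1 (-0.17, adjusted p = 0.00232) fell under all 3 other scalings and with the GC trend removed. NOTCH1 (-0.26) and NOTCH2 (0.13), named after their values were seen, were not called with the GC trend removed. The other Fringe genes, LFNG (0.809 ± 0.266 CPM in NC, SD, n = 3) and MFNG (1.06 ± 0.272), had low levels, with differences of -0.24 and -0.33 that did not pass the test.

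In the other lists the share of called genes was near the background of 28.5% or below it. In the COP9 signalosome, to which GPS1 belongs, 3 of 10 genes (30%) were called, COPS8 (0.24) and COPS3 (0.17) higher and COPS6 (-0.17) lower, and with the GC trend removed 0 were. With library size alone COPS2 was also called higher and COPS6 was not called. For LRRC45 and CCDC57, 4 of 12 centrosome linker and satellite genes (33.3%) were called, NEK2 (0.24), the kinase that dissolves the linker, CCDC14 (0.23) and PCM1 (0.19), the satellite scaffold, higher and CEP131 (-0.34) lower, and 0 with the GC trend removed. Among 13 casein kinase 1 and clock genes tested, CSNK1D included, 3 were called (23.1%): CLOCK (0.42) and CSNK1A1 (0.20) were higher and CSNK1G2 (-0.17) was lower; with library size alone CSNK1G2 was not called and CRY2 was, and with the GC trend removed the called genes were CRY2 (0.22) and PER1 (0.37), both higher. None of the 4 dihydrouridine synthases was called (median -0.10), and DCXR's list of 6 genes of pentose and glucuronate metabolism held 1 call, AKR1A1 (-0.31, adjusted p = 2.85e-04 by edgeR). Among the relatives of RAC3 itself, RAC1 (0.02), RAC2 (-0.49), RHOG (-0.17) and CDC42 (-0.08) were not called, and CDC42 was lower with the GC trend removed (-0.21, adjusted p = 0.0288).

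Finally, the profile of the immediate neighbours over the 6 samples was compared with that of 11220 genes with a mean of at least 50 counts, by Pearson's r of log2 CPM, as a description in which the 6 samples share 2 groups. The genes most like LRRC45 were RTKN (r = 0.987), SLC6A19 (0.986) and GATD3 (0.985), and RAC3 ranked 8537 with r = -0.575. The genes most like DCXR were MTARC2 (r = 0.976), CCSAP (0.976) and CMTM7 (0.975), with RAC3 at rank 8385 and r = -0.384. LRRC45 and DCXR had r = 0.619 with each other.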

How the data were processed

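RNA was enriched with oligo(dT) beads, and libraries were made with a NEBNext Ultra kit and sequenced on an Illumina instrument. The authors deposited 1 table that pairs raw counts for every gene and sample with FPKM values and with group means of the FPKM. The processing notes name Bowtie2 2.2.8, HISAT2, StringTie 1.3.1 and DESeq2 without roles; the build and the transcript lengths used for the deposited FPKM are not given in the sources used here. The count model was edgeR 4.0.16 under R 4.3.3 (filterByExpr, TMM, quasi-likelihood test, ~ group, two-sided, Benjamini-Hochberg over 12941 genes); the biological coefficient of variation was 0.0533. On data simulated for RAC3 against NC over 12850 genes, 199 of 200 changed genes were found (99.5%) and 6 unchanged genes were called. The changed genes all had a mean of at least 50 counts and larger changes than the uncalled neighbours. Every gene was given the same dispersion. How often changes as small as those of the uncalled neighbours would be found was not simulated.

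The members, lists, tests and alternatives were chosen with earlier results of these data known. Alternatives were scaling by library size alone, by the upper quartile or by DESeq2's size factors, 2 other filters (any count; at least 10 counts in every sample), DESeq2 1.42.0, limma-voom (limma 3.58.1), the replicate number as a block, leaving out each sample, removal of each library's lowess trend (span 0.3) with GC or length, and limma on log2(FPKM + 0.5) or log2(FPKM + 0.1), with genes of at least 1 FPKM in 3 samples or all genes. The partner lists under other scalings and the GC trend were added after seeing the data.

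Named were RAC3, the 8 members, tested genes between them, genes within 1 Mb past the thresholds of the study (at most 5 in each direction), at most 4 called genes of a list by p, the nearest genes of RAC3 and the 3 genes most like LRRC45 and DCXR. Positions and GC content came from GENCODE release 29, which held 20113 of the 20332 gene IDs, and promoters from RefSeq (GRCh38.p14). Symbols were missing for 617 genes. Replicates of a group differed beyond sampling noise (chi-square per degree of freedom 2.47 to 5.23) and were counted as separate samples.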

Additional observations from a re-analysis of the deposited data

How the results depend on the processing

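SLC16A3 kept its direction and its call under all 20 alternatives, and the other 7 members were never called. Their signs were less stable. Removing the GC trend, without and with the replicate block, gave equal values for 4 genes: DCXR was at 0.13 in both, GPS1 at 0.04, DUS1L at 0.14 and CSNK1D at 0.11, and LRRC45 was at 0.00 with both together. With library size alone DUS1L was at 0.00 and CSNK1D at 0.04, and CSNK1D was at 0.02 in the 3 limma fits on FPKM. Leaving out each sample gave CSNK1D values of -0.07 to 0.00. Members past the thresholds of the study numbered 0 once the GC trend was removed, alone or with the block. Genes called higher numbered 2613 with library size alone and 1108 when block and GC removal were combined. The median within 250 kb was -0.09 with library size alone, 0.06 after GC removal and 0.05 when the block was added. Within 1 Mb these were -0.11, 0.00 and 0.00. Counts of called partner genes became 1 for the Rac relatives, 0 for the COP9 signalosome, 0 for the centrosome list and 3 for the monocarboxylate list with the GC trend removed, and 2 for the pentose list with library size alone. The causes were not tested beyond the changes that define each setting.

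Leaving out each sample in turn gave medians of -0.18 to -0.07 within 250 kb and 9 to 11 called genes within 1 Mb. The median nearest 0 came without NC replicate 1, and the count of 9 came without NC replicate 1 and without RAC3 replicate 3.

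The groups share replicate numbers in the labels. Deviations of same-numbered samples correlated at -0.0859, -0.0449 and -0.0189 over 11221 genes, so the numbers did not pair the samples. With the replicate block 1484 genes were called higher and 1777 lower, and the same single member, SLC16A3, was called. The main limits are 3 samples a group, transcript GC content that moves with the region, and counts that merge endogenous RAC3 with the cassette. CCDC57, with 47 to 87 counts a sample, has the least precise value.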
